A study of Mus musculus with 20 samples.

Results

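Exome sequencing has tied rare damaging variants in a small set of genes to schizophrenia, and the mouse counterparts of 8 of these genes were followed here in the hippocampus of mice that received human small RNAs (sRNAs). The genes Setd1a, Sp4, Xpo7, Cul1, Herc1, Rb1cc1, Trio and Akap11 were taken by name from a table of 25190 genes, and each name matched 1 gene. They were chosen for their human genetics, not for their values in these mice. RNA was sequenced from 20 mice in 4 groups of 5. Vehicle mice were given artificial cerebrospinal fluid alone. The Control group was given a pool of hippocampal sRNAs from unaffected people, and the groups Pool 1 and Pool 2 were each given such a pool from a separate cohort of people with schizophrenia. All of them were male wild-type C57BL/6JOlaHsd mice aged 4 months, infused repeatedly and bilaterally through a cannula in CA1 of the dorsal hippocampus, and the tissue dates from 24 hours past their final behavioural test. Each sRNA group rests on 1 pool of donors, so a difference between groups cannot be told apart from a difference between pools, and p-values measure only the spread between the sequenced mice. For these genes, the comparisons ask whether sRNAs from patients move the expression of genes in which rare variants raise the risk of the disorder.

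These genes act in separate processes. Setd1a adds methyl groups to histone H3 at active promoters, Sp4 is a neuronal transcription factor that binds GC-rich promoter boxes, and Xpo7 carries proteins out of the nucleus. Cul1 is the scaffold of the SCF ubiquitin ligases, Herc1 is a giant HECT-type ubiquitin ligase, and Rb1cc1 (FIP200) is a scaffold of the kinase complex that starts autophagy. Trio is a guanine nucleotide exchange factor at growing axons and synapses, and Akap11 anchors protein kinase A. The damaging variants found in patients usually affect 1 of the copies of the gene.

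The 8 genes differ in size and base composition. The longest coding transcripts in the annotation (GENCODE M21, GRCm38) measure 15.15 kb for Herc1 (chr9:66350450-66508775, plus strand, 78 exons) and 15.12 kb for Xpo7 (chr14:70654246-70766628, minus strand, 28 exons). Of the Herc1 transcript 14.58 kb is coding, whereas 11.76 kb of the Xpo7 transcript is 3′ untranslated region. Trio follows with 11.49 kb (chr15:27730651-28025848, minus strand, 57 exons) and Akap11 with 9.36 kb (chr14:78492246-78536808, minus strand, 12 exons). Rb1cc1 measures 7.61 kb (chr1:6206197-6276648, plus strand, 24 exons), Setd1a 6.49 kb (chr7:127776670-127800122, plus strand, 19 exons) and Sp4 5.69 kb (chr12:118234933-118301440, minus strand, 6 exons). Cul1 is the shortest with 3.16 kb (chr6:47453398-47526139, plus strand, 22 exons). The GC content of these transcripts runs from 39.1% in Rb1cc1, 39.9% in Sp4 and 41.9% in Akap11 over 44.1% in Cul1, 44.7% in Xpo7 and 47.0% in Herc1 to 53.3% in Trio and 57.0% in Setd1a.

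The promoters of the 4 members below are shown because they hold the motifs found among these genes or, in Trio, lack them next to the start. Each line gives the 100 bases directly before the start site of the RefSeq transcript in GRCm38.p6, read 5′ to 3′ on the strand of the gene, and none of these stretches overlaps an annotated exon. Capitals mark the GC box, searched as GGGCGG or CCGCCC, the element that Sp4 and its relatives bind, and TCTCGCGAGA, the only self-complementary word of 10 bases that stood in the promoters of more than 1 member.
Sp4 promoter, chr12:118301441-118301540, minus strand: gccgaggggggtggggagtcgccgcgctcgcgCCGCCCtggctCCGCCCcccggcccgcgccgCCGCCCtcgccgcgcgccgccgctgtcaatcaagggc
Herc1 promoter, chr9:66350350-66350449, plus strand: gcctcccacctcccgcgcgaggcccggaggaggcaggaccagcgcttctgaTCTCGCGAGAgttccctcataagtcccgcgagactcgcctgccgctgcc
Akap11 promoter, chr14:78536861-78536960, minus strand: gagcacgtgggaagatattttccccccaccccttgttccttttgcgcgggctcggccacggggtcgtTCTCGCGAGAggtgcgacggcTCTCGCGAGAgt
Trio promoter, chr15:28025849-28025948, minus strand: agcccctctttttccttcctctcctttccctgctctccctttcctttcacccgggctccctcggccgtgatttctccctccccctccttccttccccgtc

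The Sp4 promoter held 4 GC boxes in the 250 bases before its start, 3 of them in the stretch shown, and the Trio promoter held 3, all of them further upstream. Herc1 held 1 GC box, also further upstream, and Setd1a and both entries of Akap11 held 0. Cul1 has 3 promoter entries, with 0, 3 and 1 GC boxes, of which 0, 2 and 1 lay in the 100 bases next to the start. Across 20150 promoters of protein-coding genes, 44.1% held a GC box in a window of the same length and 23.6% held at least 2. The palindrome stood 49 bases before the start of Herc1, and 2 copies stood 33 and 12 bases before the start of Akap11, with none in the other promoters of the 6 members matched. It was present in 0.57% of the coding promoters and in 0.39% of all 32851, and the search was made after the sequences had been seen. These are matches of letters, and binding was not measured. Xpo7 and Rb1cc1 were not matched.

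The libraries held 20588280 to 25543939 counts each, and a member had between 344 and 9739 counts in a library, so counting error was small beside the spread between mice. Levels are given as CPM, the counts of a gene relative to the library total after scaling by edgeR's TMM factors. All 8 neuronal markers checked were in the table, and their sum lay between 10988 and 14892 CPM in every library. Pool 2 replicate 1 stood apart in its microglial markers, at 1347 CPM against 403 to 648 elsewhere, and in its astrocyte markers, at 7430 against 4594 to 6100 CPM, while Vehicle replicate 4 held 8925 CPM of choroid plexus markers against 91.4 to 2277 in the others. Pool 2 replicate 4 was high in thalamic markers, at 536 CPM against 124 to 313 elsewhere. No member passed the threshold without the first 2 of these libraries or without the third. A list meant for RNAs without a poly(A) tail, of which 5 of 9 checked were in the table, differed between groups and not only in single mice. The 5 were Rn7sk, Gm42418, Gm26917, Mir6236 and Lars2, of which Lars2 is a protein-coding gene. The study had named all 5 as higher in both pools in these same mice. A higher sum in the pools than in Control was thus set by the choice of genes and is no separate result. Their sum was 650 to 5035 CPM in Vehicle, 559 to 1817 in Control, 1723 to 13803 in Pool 1 and 3393 to 9421 in Pool 2. The part of this difference in the values of the members was not tested. In tissue RNA, fewer cells of a type and less RNA per cell cannot be told apart.

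Scaled to transcript length, the members differed widely in level in Vehicle mice. Cul1 was at 40.5 ± 4.09 CPM per kb (SD, n = 5) and Akap11 at 36.6 ± 5.34, and their ranges overlapped. Trio at 21.9 ± 3.35 and Herc1 at 21.2 ± 3.81 also overlapped and changed places when the union of all exons was taken as the length. Below them came Rb1cc1 at 13.9 ± 0.526, Xpo7 at 6.41 ± 0.441, Sp4 at 4.20 ± 0.675 and Setd1a at 3.39 ± 0.536 CPM per kb, where Sp4 and Setd1a overlapped. The value of Xpo7 rests on a transcript of 15.12 kb, of which 11.76 kb is 3′ untranslated region, and would be higher for a shorter form. Which form the reads came from was not tested. The chromatin and transcription factors were thus the lowest members, and the ubiquitin scaffold and the kinase anchor the highest. Close paralogs were not always at the level of the member. Their length was that of the longest annotated transcript of any kind, not of the longest coding one as for the members. Kalrn, the other Trio-type exchange factor, was at 78.6 ± 7.57 CPM per kb, above Trio in every Vehicle mouse, and Sp3 at 14.0 ± 0.638 was above Sp4 in every Vehicle mouse, while Sp1 at 4.02 ± 0.701 overlapped Sp4. Setd1b was at 5.21 ± 1.08, Herc2, the other giant HERC ligase, at 21.6 ± 4.13, and Ranbp17, the relative of Xpo7, at only 1.14 ± 0.114 CPM per kb.

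**Figure D1:**
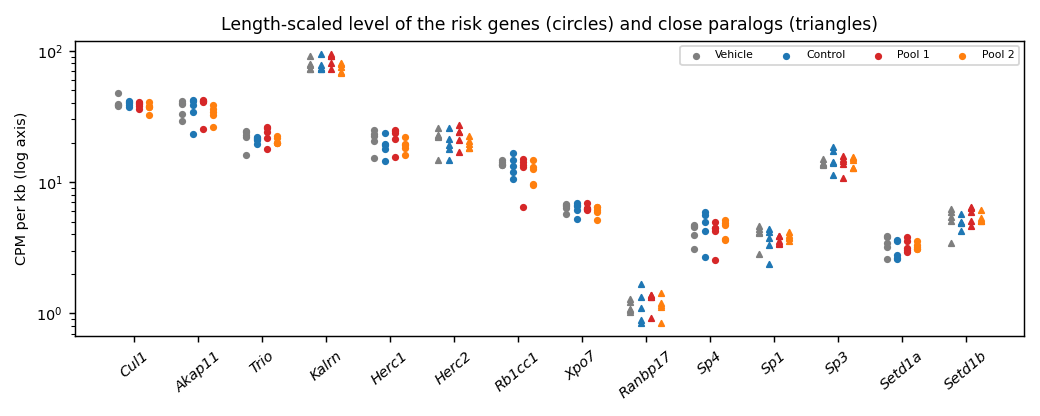
Level of the risk genes (circles) and their close paralogs (triangles) in CPM per kb, on a log axis, 1 point per mouse, coloured by group. The length is that of the longest coding transcript for the risk genes and of the longest transcript of any kind for the paralogs. Cul1 and Akap11 lie at the top of the members with Vehicle means of 40.5 and 36.6 CPM per kb, and Sp4 and Setd1a at the bottom with 4.20 and 3.39, in all 4 groups.

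Neither pool of patient sRNAs gave a detectable change in any of the 8 genes. The threshold used here asks for a log2 fold change of 0.3 or more in either direction together with an unadjusted p-value below 0.05, without the filter on low expression that the study applied to its own calls. By it, 0 of 8 members were called in Pool 1 against Control, where 3.48% of all genes were, and 0 of 8 in Pool 2 against Control, where 6.22% were. The same held for Pool 2 against Pool 1 (0 of 8, against 6.82% of all genes) and for Control against Vehicle (0 of 8, against 5.1%). Among the 16644 genes whose normalized count averaged 10 or more, the limit of that filter, the shares were 2.42%, 5.82%, 6.81% and 4.78% in the same order, again with 0 of 8 members. Genes with a mean of at least 10 CPM, like the members, passed less often, at 1.28%, 2.43%, 3.17% and 2.6% in the same order. With shares of this size, 0 of 8 is near the background. In edgeR's quasi-likelihood test 0 of 8 members had an unadjusted p-value under 0.05 in any of the 4 comparisons, against 5.22%, 7.7%, 8.52% and 6.64% of all genes, and in DESeq2 likewise 0 of 8. With Benjamini-Hochberg adjustment over all 25190 genes, edgeR called 0 genes in each comparison. DESeq2, which gave a p-value for 25138 genes and adjusted after its own filter on low counts, called 7, 18, 115 and 0, none of them a member. The groups overlapped in all 8 members in each comparison, while 0.861%, 1.05%, 1.41% and 0.607% of all genes were without overlap. A single edgeR test of whether the 4 groups differ at all also gave 0 of 8 at an unadjusted p-value under 0.05, against 7.86% of all genes, with the smallest p-value in Herc1 (0.324, adjusted p = 0.860).

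The intervals show how large a change could have been missed. All 32 intervals of 95%, for 8 members in 4 comparisons, held 0, and the bound farthest from 0 was a log2 fold change of −0.57 in Sp4 for Pool 1 against Control, which is 1.49-fold. A 2-fold change in either direction lies outside every interval. The comparisons share libraries, Control in 3 of the 4, so their values are not independent.

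**Figure D2:**
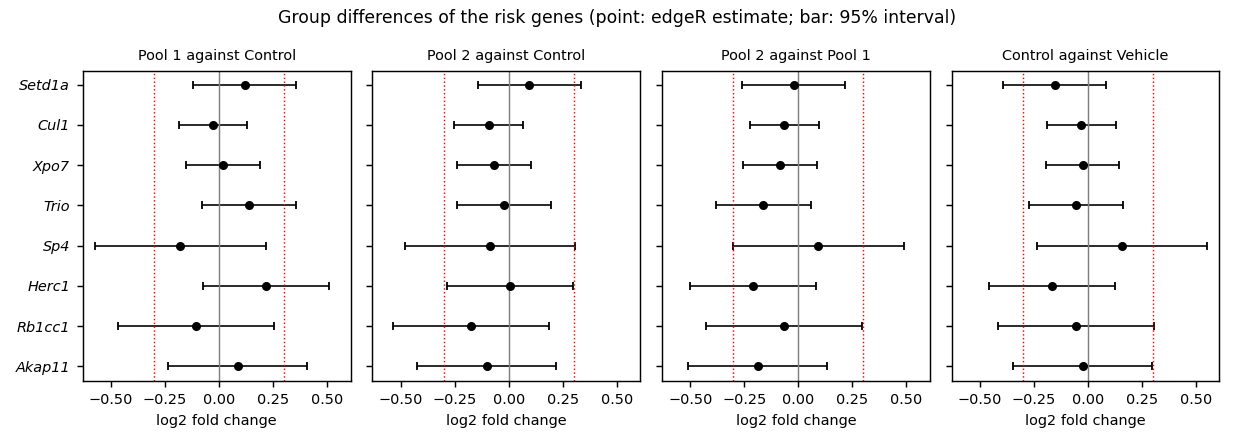
Log2 fold change of each member in the 4 comparisons, with points for the edgeR estimate and bars for its 95% interval. Dotted lines mark the threshold of 0.3 on either side of 0. Every interval holds 0, and the bound farthest from 0 is −0.57, in Sp4 for Pool 1 against Control.

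Setd1a and Sp4, the 2 members that act on transcription, were the least abundant. Setd1a had 22.0 ± 3.48 CPM in Vehicle (SD, n = 5), 19.8 ± 3.28 in Control, 21.5 ± 2.47 in Pool 1 and 21.1 ± 1.21 in Pool 2. Its log2 fold change was 0.12 (95% interval −0.12 to 0.36) in Pool 1 and 0.10 (−0.14 to 0.34) in Pool 2 against Control, and −0.15 (−0.39 to 0.09) in Control against Vehicle. Sp4 was read as 26.5, 26.8, 22.6, 25.9 and 17.7 CPM in Vehicle mice 1 to 5 and as 15.4, 24.1, 33.4, 28.5 and 32.0 in Control mice 1 to 5. The Control group held both the highest Sp4 value of all mice and the second lowest. Sp4 reached 25.4, 28.3, 24.3, 25.3 and 14.5 CPM in the Pool 1 mice and 20.8, 29.4, 20.7, 27.8 and 26.8 in the Pool 2 mice, so that the ranges of all 4 groups overlapped and 1 Pool 1 mouse lay far below the others. The log2 fold change of Sp4 was −0.18 (−0.57 to 0.21) in Pool 1 and −0.09 (−0.48 to 0.31) in Pool 2 against Control, and 0.16 (−0.24 to 0.55) in Control against Vehicle.

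Xpo7, the nuclear exporter, was among the steadiest members. Its levels were 96.9 ± 6.67 CPM in Vehicle (SD, n = 5), 95.3 ± 10.3 in Control, 96.3 ± 4.51 in Pool 1 and 90.9 ± 7.73 in Pool 2, and the log2 fold change against Control was 0.02 (95% interval −0.15 to 0.19) in Pool 1 and −0.07 (−0.24 to 0.10) in Pool 2.

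Of the 3 members in protein turnover, Cul1 varied little and Herc1 and Rb1cc1 varied much. Cul1 had 128 ± 12.9 CPM in Vehicle (SD, n = 5), 125 ± 5.01 in Control, 123 ± 6.18 in Pool 1 and 117 ± 9.32 in Pool 2, with log2 fold changes against Control of −0.03 (95% interval −0.19 to 0.13) in Pool 1 and −0.09 (−0.25 to 0.07) in Pool 2. Herc1 gave the largest estimate of any member against Control. Its levels were 218, 268, 298, 358 and 290.1 CPM in Control mice 1 to 5 and 372, 375, 359.8, 321 and 236 CPM in Pool 1 mice 1 to 5. In Pool 1, 3 mice lay above the highest Control mouse and 1 lay below all Control mice but the lowest. The log2 fold change was 0.22 (SE 0.14, 95% interval −0.08 to 0.51), with an unadjusted p-value of 0.140 and an adjusted p of 0.919 in edgeR. The difference was not carried by both pools, since Pool 2 mice had 246, 337, 273, 289.9 and 294 CPM and a log2 fold change of 0.01 (−0.28 to 0.30) against Control, but the direct comparison of the pools, −0.21 (−0.50 to 0.08; unadjusted p = 0.153), did not pass either. Vehicle mice, with 309, 350.2, 381, 339.6 and 229 CPM, covered most of the range of the sRNA groups.

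Rb1cc1, the autophagy scaffold, had 106 ± 4 CPM in Vehicle mice (SD, n = 5), the smallest spread of its 4 groups. The values were 80.6, 91.0, 126, 113 and 101 for mice 1 to 5 of Control, 108, 115, 103, 98.9 and 48.9 for those of Pool 1 and 72.5, 112, 73.2, 95.2 and 99.9 for those of Pool 2. A single Pool 1 mouse sat below every other mouse, and 2 Pool 2 mice and 1 Control mouse were also low, so the groups overlapped. The log2 fold change was −0.11 (95% interval −0.47 to 0.25) in Pool 1 and −0.17 (−0.54 to 0.19) in Pool 2 against Control. Without Pool 1 replicate 5 the estimate for Pool 1 turned to 0.06.

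The members in signalling, Trio and Akap11, were abundant, and the mouse lowest in one was lowest in the other in Vehicle, Control and Pool 1 but not in Pool 2. Trio was at 223, 253, 243, 251 and 241 CPM in Control mice 1 to 5 and at 278, 297, 304, 251 and 206 in Pool 1 mice 1 to 5. In Pool 1, 3 mice were above all Control mice and 1 was below all of them, and the log2 fold change was 0.14 (95% interval −0.08 to 0.36). Pool 2 mice had 229, 260.1, 229, 227 and 248 CPM and Vehicle mice 254, 281, 275, 264 and 185, with log2 fold changes of −0.02 (−0.24 to 0.20) for Pool 2 against Control and −0.06 (−0.27 to 0.16) for Control against Vehicle. Between the pools Trio gave −0.16 (−0.38 to 0.06), the smallest unadjusted p-value of the members there (0.139, adjusted p = 0.741 in edgeR). Akap11 was at 219, 319, 397, 387 and 363 CPM in Control mice and at 389, 394, 386, 380.4 and 239 in Pool 1 mice, where 4 mice lay close together and the remaining mouse far below. In Pool 2 it was at 246, 365, 303, 319 and 338 CPM and in Vehicle at 310.4, 375, 369, 388 and 271, and the log2 fold changes against Control were 0.09 (−0.24 to 0.41) in Pool 1 and −0.10 (−0.42 to 0.22) in Pool 2.

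**Figure D3:**
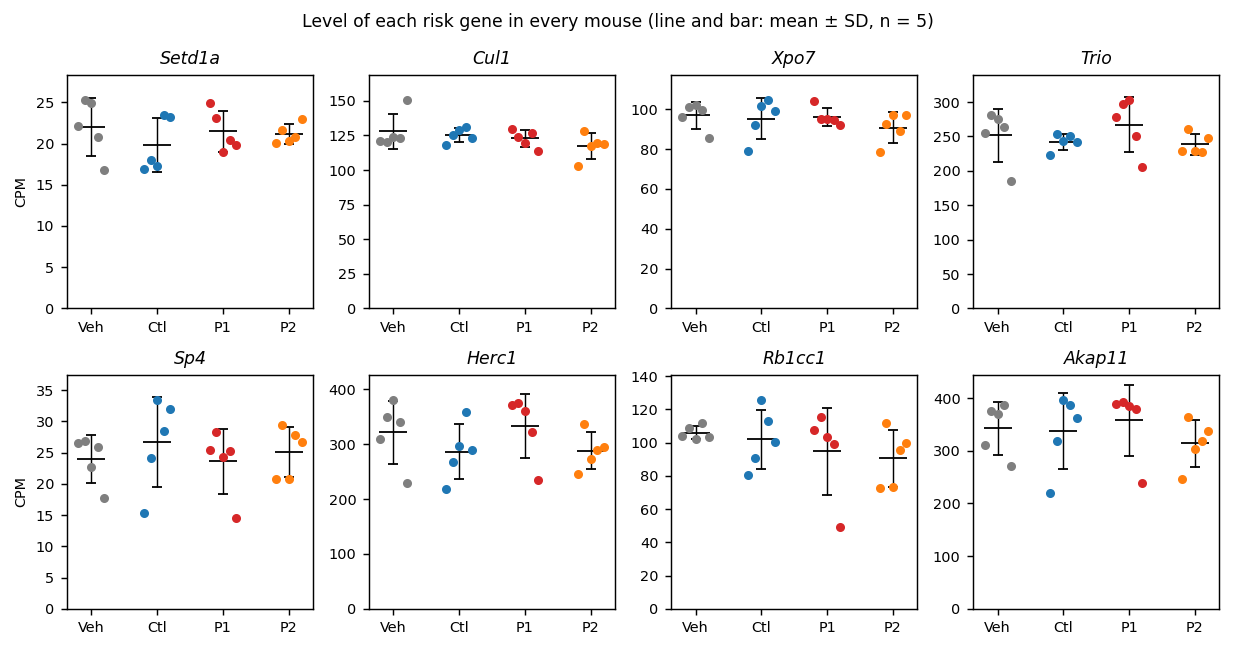
Level of each member in CPM in every mouse, 1 panel per gene with its own axis from 0, groups Vehicle (Veh), Control (Ctl), Pool 1 (P1) and Pool 2 (P2), with the mean ± SD of 5 mice. All groups overlap in every panel, and 1 mouse of Pool 1 lies far below the others in Sp4 (14.5 CPM), Rb1cc1 (48.9 CPM) and Akap11 (239 CPM).

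The members' median differences were small. The median log2 fold change was 0.05 in Pool 1 and −0.08 in Pool 2 against Control, −0.08 in Pool 2 against Pool 1 and −0.04 in Control against Vehicle, beside medians over all genes of −0.01, 0.00, 0.02 and −0.01. Over the 10181 genes with a mean of at least 10 CPM, like the members, the medians were −0.004, −0.030, −0.020 and 0.009 in the same order. Estimates were above 0 for 5 of 8 members in Pool 1 and for 2 of 8 in Pool 2 against Control, and for 1 of 8 both in Pool 2 against Pool 1 and in Control against Vehicle, none of them past the test. Since the members moved together from library to library, as described next, these counts are not independent.

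What varied was the level from mouse to mouse within groups. The within-group SD on the log2 scale was 0.34 in Sp4, 0.32 in Rb1cc1, 0.28 in Akap11 and 0.25 in Herc1, beside a median of 0.17 over 10181 genes with a mean of at least 10 CPM. These SDs were larger than those of 93.3%, 91.1%, 87.2% and 82.1% of these genes, respectively. Setd1a (0.19) and Trio (0.18) were near the middle, and Xpo7 (0.12) and Cul1 (0.10) were steadier than most, with 20.98% and 10.1% of genes below them. Between its extremes in the 20 mice, Rb1cc1 differed 2.57-fold and Sp4 2.30-fold, against 1.34-fold in Xpo7 and 1.47-fold in Cul1.

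The same mice were low in member after member. Control replicate 1 was the lowest of its group in 8 of 8 members, Pool 1 replicate 5 in 7 of 8, all but Setd1a, and Vehicle replicate 5 and Pool 2 replicate 1 in 6 of 8 each. Vehicle replicate 5 was low in Setd1a, Xpo7, Trio, Sp4, Herc1 and Akap11 and at the same time held the highest Cul1 level of all mice, 151 CPM. With group means removed, the correlation between 2 members over the 20 libraries ranged from −0.18 to 0.92 across the 28 pairs, with a median of 0.65. It was highest for Sp4 and Akap11 (r = 0.92) and for Herc1 and Akap11 (r = 0.91). The 7 pairs with Cul1 ranged from −0.18 to 0.51, the other 21 from 0.30 to 0.92. These are descriptions, since the points share libraries and their scaling.

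Mice that were low in the members also had libraries with fewer reads of long transcripts. For each library, the median log2 deviation of 775 coding genes with transcripts over 8 kb was set against that of 1527 genes under 2 kb, with the members left out. This balance of long against short was −0.68 in Control replicate 1, −0.60 in Pool 1 replicate 5, −0.40 in Vehicle replicate 5 and −0.35 in Control replicate 2, and at most 0.34 in the other libraries. Pool 2 replicates 1 and 3 had −0.25 and −0.27. A second balance, of 576 genes with a GC content under 40% against 2251 genes over 55%, was lowest in Pool 1 replicate 5 (−0.68) and Control replicate 1 (−0.35) and highest in Control replicate 3 (0.42), the mouse with the highest Sp4, Rb1cc1 and Akap11 levels.

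**Figure D4:**
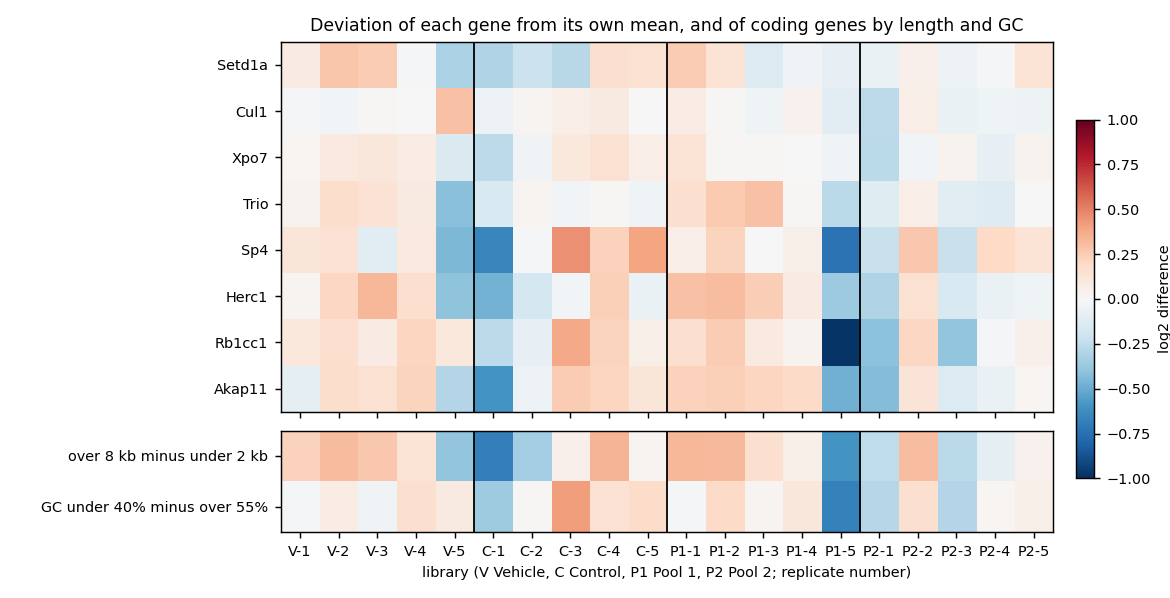
Deviation of each member from its own mean over all mice (log2, red higher and blue lower) in the 20 libraries, above the balance of long against short transcripts and of AT-rich against GC-rich transcripts in the same libraries. Control replicate 1 and Pool 1 replicate 5 are blue in nearly every member and in both balances, at −0.68 and −0.60 for length and −0.35 and −0.68 for GC content.

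With group means removed, each member could be set against both balances over the 20 libraries. Herc1, the member with the longest transcript, moved with the balance of length at r = 0.95, followed by Sp4 and Akap11 (r = 0.90 each), Rb1cc1 (0.81), Trio (0.80), Xpo7 (0.73) and Setd1a (0.72), while Cul1, the shortest, had 0.18. Between these ends the order did not follow length: Sp4, with 5.69 kb, stood above Trio with 11.49 kb and Xpo7 with 15.12 kb. With the balance of GC content, Rb1cc1, the member with the lowest GC content, had r = 0.95, Sp4 0.88 and Akap11 0.86, and Setd1a, the one with the highest, 0.23. A correction of each library for transcript length and GC content, chosen after the data had been seen, lowered the within-group SD of Herc1 by 76.6%, from 0.25 to 0.06, that of Akap11 by 67.1% and that of Rb1cc1 by 59.4%. Sp4, Trio, Setd1a and Cul1 fell by 44.2%, 38.1%, 36.4% and 23.7%. Xpo7, whose length is mostly 3′ untranslated region, instead went from 0.12 to 0.20. After the correction the 28 correlations between members ranged from −0.72 to 0.53, with a median of 0.00. Whether the balance arose in the tissue, the RNA or the library was not tested.

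**Figure D5:**
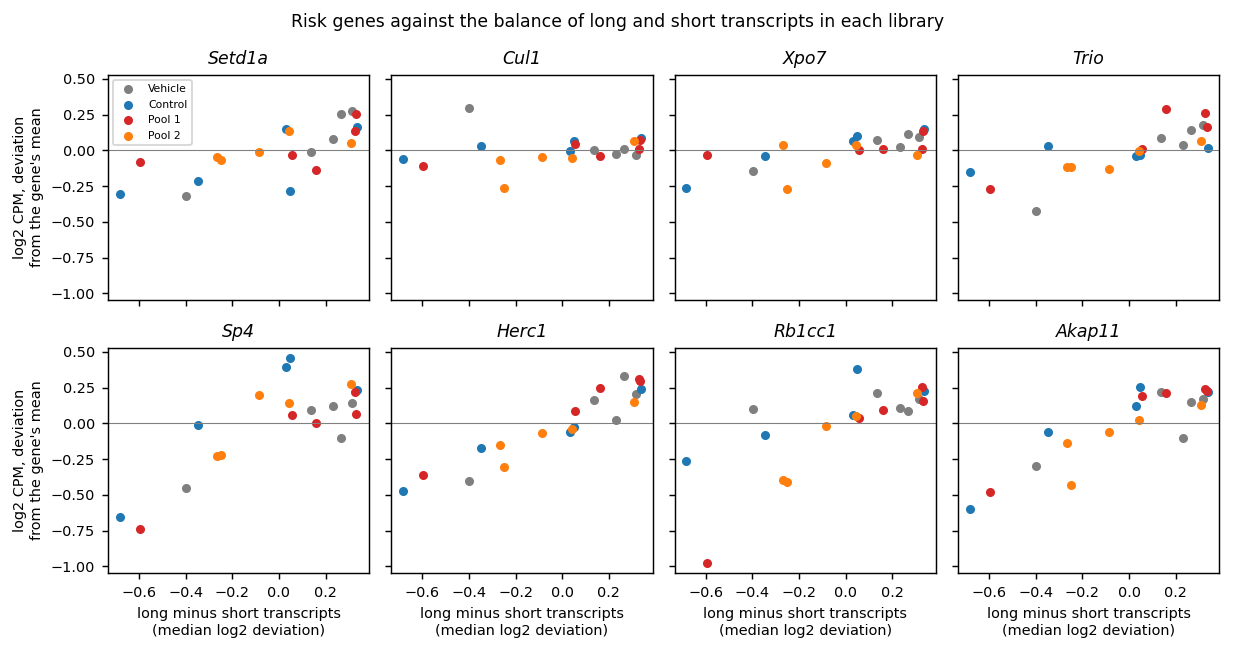
Log2 deviation of each member from its own mean against the balance of long and short transcripts in the same library, 1 point per mouse, coloured by group. The points of Herc1 rise closely with the balance (r = 0.95 with group means removed), those of Cul1 do not (r = 0.18), and the low points come from all 4 groups.

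The genes whose levels followed a member most closely, with group means removed, were searched among 10180 genes. They were Rsbn1l and Rsbn1 for Sp4 (r = 0.98 each), Birc6 and Sptbn1 for Herc1 (0.98 each), Rps6kb1 and Naa15 for Rb1cc1 (0.98 each), and Samd12 and Zyg11b for Akap11 (0.99 and 0.98). Trio went with Map3k13 and Bbx (0.94 each), Setd1a with Rad54l2 and Zfp532 (0.93 and 0.90), Xpo7 with Smcr8 and Pde10a (0.93 and 0.92) and Cul1 with Zranb1 and Maco1 (0.89 and 0.86). These genes share the libraries and the balances above with the members.

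Herc1, Trio, Akap11 and Setd1a passed the threshold or fell under an unadjusted p-value of 0.05 in edgeR when single libraries or their balance were taken into account. Sp4 shifted as well, in Pool 1 against Control from −0.05 without Pool 1 replicate 5 to −0.32 without Control replicate 1. In Control against Vehicle Sp4 ran from 0.06 without Control replicate 3 to 0.30 without Control replicate 1. Without Control replicate 1, 0 members were under an unadjusted 0.05 in edgeR in these 2 comparisons. Without Control replicate 4 Herc1 passed the threshold in Pool 1 against Control, at 0.31 (unadjusted p = 0.0396 in edgeR, where 4.96% of all genes passed), and without Pool 1 replicate 5 it passed at 0.32 (unadjusted p = 0.0237, 4.15% of all genes). Without Pool 1 replicate 5, Herc1 and Akap11 also passed in Pool 2 against Pool 1, at −0.31 and −0.30, where 8.21% of all genes did. Trio was then at 0.22 in Pool 1 against Control and at −0.24 between the pools, under an unadjusted 0.05 in edgeR together with 6.18% and 10.9% of all genes but short of the fold threshold. Setd1a was under an unadjusted 0.05 in Control against Vehicle without Vehicle replicate 5, at −0.24 (adjusted p = 0.457 in edgeR), together with 10.6% of all genes, in a comparison without sRNAs from patients. With the correction for length and GC content, the log2 fold change of Herc1 was 0.12 (95% interval 0.02 to 0.23) in Pool 1 against Control, with an unadjusted p-value of 0.0236 in a fit where 4.27% of all genes were under 0.05, and an adjusted p of 0.999 in edgeR. Against Pool 1, Pool 2 gave −0.13 in Herc1 (unadjusted p = 0.0191, with 10.7% of all genes under 0.05, adjusted p = 0.360). Trio, in contrast, went from 0.14 to −0.01 in Pool 1 against Control. When the library with the lowest median of transcripts over 8 kb was left out of each group, the 16 remaining libraries gave 0.23 in Herc1 (unadjusted p = 0.0200) and 0.19 in Trio (0.0160) for Pool 1 against Control, where 5.74% of all genes were under 0.05, both with an adjusted p of 0.835. In Pool 2 against Pool 1 the same libraries gave −0.26 in Herc1 (0.0113), −0.23 in Trio (0.00525) and −0.23 in Akap11 (0.0141), where 9.22% of all genes were under 0.05, with adjusted p-values of 0.386, 0.308 and 0.404. In edgeR's test of any difference among the 4 groups, the 16 libraries gave an unadjusted p-value of 0.0182 for Trio and 0.0235 for Herc1, with 9.51% of all genes under 0.05 and adjusted p-values of 0.432 and 0.450. None of the values with the correction or in the 16 libraries reached the fold threshold of 0.3 or an adjusted p-value under 0.05. In Pool 2 the library left out was replicate 1, with a median of −0.16 against −0.14 in replicate 3, which was slightly lower in the balance of long against short, and replicate 1 is also the library with the high microglial markers. These libraries were left out by a measure that itself moves with the members, so these values are a description and no independent test.

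Few partners and relatives of the members passed the threshold. Over 9 lists with 113 genes, 1 gene (0.885%) passed in Pool 1 against Control and 2 (1.77%) in Pool 2 against Control. In Pool 2 against Pool 1 it was 3 (2.65%), and in Control against Vehicle 1 (0.885%). None had an adjusted p-value under 0.05 in edgeR. These shares are below those of all genes given above. Genes with a mean of at least 10 CPM passed at 1.28%, 2.43%, 3.17% and 2.6%, so with so few genes the counts are near the background. The median log2 fold change over the 113 genes was 0.03, −0.03, −0.06 and −0.02 in the same order. None of 13 further genes from exome studies passed in any comparison. The glutamate receptor subunits Grin2a and Gria3 and the calcium channel Cacna1g belong to this list. Between the pools 2 of its genes fell below an unadjusted 0.05 in edgeR, where 8.52% of the whole table did, and 0 in the other comparisons. With so few genes, 2 of 13 is not set apart from that share. None passed either of 14 genes of the SCF and other cullin ligases, 12 karyopherins, 10 SP and KLF factors or 13 genes of autophagy initiation.

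In the list of COMPASS, the complex around Setd1a, 1 of 13 genes passed in 3 of the comparisons, and it was each time Dpy30, a core subunit. Of all genes, 3.48% passed in Pool 1 against Control, 6.22% in Pool 2 against Control and 5.1% in Control against Vehicle, so 1 of 13 is near the background. Dpy30 was at 20.1 ± 4.70 CPM in Control (SD, n = 5) and lower in the other groups, at 15.3 ± 2.34 in Vehicle, 15.5 ± 2.18 in Pool 1 and 15.98 ± 2.61 in Pool 2. Its log2 fold change was −0.38 in Pool 1 against Control (SE 0.15, unadjusted p = 0.0168, adjusted p = 0.917), −0.33 in Pool 2 against Control (unadjusted p = 0.0332) and 0.39 in Control against Vehicle (unadjusted p = 0.0140). All 3 share the Control libraries. The gene no longer passed with the correction for length and GC content, at −0.06, −0.12 and 0.10, nor without Control replicate 2, at −0.26, −0.22 and 0.28. Leaving out Control replicate 1 (−0.32 and −0.27) ended the call in both pools, Pool 1 replicate 2 (−0.32) ended it in Pool 1, and Pool 2 replicates 2 and 5 (−0.26 and −0.29) each ended it in Pool 2. It was also lost in Pool 2 without Pool 2 replicate 1 and Vehicle replicate 4, at −0.34 (unadjusted p = 0.0505), and against Control in both pools in the 16 libraries, at −0.33 and −0.27.

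Among the 16 genes of protein kinase A and its anchors, 2 passed between the pools and 1 of them also in Pool 2 against Control. Of all genes, 6.82% and 6.22% passed there, and 3.17% and 2.43% of those with a mean of at least 10 CPM. This is 1 of 9 lists, and such small counts do not set it apart from the background. Akap12 (gravin) was at 22.2 ± 5.08 CPM in Pool 2 (SD, n = 5), against 16.2 ± 3.15 in Control and 16.8 ± 1.27 in Pool 1. The log2 fold change was 0.46 against Control (SE 0.15, unadjusted p = 0.00516, adjusted p = 0.479 in edgeR) and 0.40 against Pool 1 (unadjusted p = 0.0126), which fell to 0.27 without Pool 2 replicate 4, the library with the high thalamic markers, and then no longer passed. The part of the thalamic markers in this value was not tested. Akap5, which anchors the kinase at postsynaptic sites, was at 68.1 ± 12.1 CPM in Pool 2 and at 89.9 ± 16.5 in Pool 1, a log2 fold change of −0.40 (SE 0.12, unadjusted p = 0.00342, adjusted p = 0.325). In the HERC list, Herc6 passed between the pools with 0.60 (SE 0.28, unadjusted p = 0.0413), at only 4.92 ± 2.93 CPM in Pool 2 and 3.23 ± 1.06 in Pool 1. That call rested on Pool 2 replicate 1, the library with the high microglial markers, since the log2 fold change was 0.17 without it. It was also lost without Vehicle replicate 1 (0.56) and without Pool 1 replicate 3 (0.58), 4 (0.63) or 5 (0.42).

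None of the closest paralogs passed the threshold either. Against Control, the log2 fold change of Setd1b was 0.20 in Pool 1 and 0.12 in Pool 2, Herc2 had 0.20 and −0.00, Kalrn 0.14 and −0.07, Ranbp17 0.13 and −0.02, Sp3 −0.11 and −0.07, and Sp1 0.00 and 0.10, with no unadjusted p-value under 0.05. Between the pools Kalrn had −0.21 (unadjusted p = 0.0363, adjusted p = 0.540 in edgeR), a smaller p-value than that of any member there but short of the fold threshold.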

How the data were processed

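Hippocampal RNA of 20 mice was sequenced from stranded libraries of polyadenylated RNA as 50 nt single-end reads. The authors aligned the reads to GRCm38 with STAR and deposited raw counts per gene, without normalization. Genes with a total under 10 counts are absent from the table, and the strand setting of the count is not given in the sources used here. Libraries were assigned to groups by their labels.

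Counts were scaled by TMM and tested with edgeR 4.0.16 (quasi-likelihood, robust estimate of the spread) in R 4.3.3, in 1 fit of all 20 libraries and 25190 genes, with Benjamini-Hochberg adjustment over all of them. Log2 CPM used a prior count of 2. Lengths and GC content came from GENCODE M21 and covered 99.8% of the genes, and promoters came from RefSeq (GRCm38.p6). The edgeR fit, the DESeq2 fit and the correction for length and GC content were tried on simulated counts, for Pool 1 against Control only. The alternatives were DESeq2 1.42.0, other scalings and filters, fewer libraries and the replicate number as a block. The correction for length and GC content and the set of 16 libraries were added after seeing the data.

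All members are named, with their closest paralogs, the 2 genes most like each member, and at most 3 genes per comparison from the lists of partners that passed the threshold. The separate result of 1 list of partners is not reported here. The members, lists and tests were chosen with earlier results of these data known. No permutation test of single members was made, since it was reserved for members past the threshold. Depth was 20588280 to 25543939 counts per library. Over the 40 pairs of replicates of a group, the chi-square statistic of their counts divided by its degrees of freedom was 8.23 to 66.8, so no library was a repeat of another in its own group. Pairs from different groups were not compared in this way.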

Additional observations from a re-analysis of the deposited data

Results flagged for a closer look

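In 9 of 56 combinations of a gene (a member or close paralog) and a group, 1 mouse lay further from the others than the 95% limit of Dixon's test allows. Chance gives about 1 in 20 for a single combination. The combinations share libraries and the members moved together across them, so the count is no test against that share. In Pool 1 replicate 5 this held for Sp4 (14.5 CPM, next 24.3), Rb1cc1 (48.9 CPM, next 98.9) and Akap11 (239 CPM, next 380.4), the same library in which transcripts over 8 kb and transcripts of low GC content were low. In Vehicle replicate 5, Cul1 was high (151 CPM, next 124) and Trio low (185 CPM, next 254). The other 4 cases were Xpo7 in Pool 1 replicate 1 (104 CPM, next 95.3), Setd1b in Pool 2 replicate 2 (54.3 CPM, next 47.3), Ranbp17 in Pool 1 replicate 3 (4.61 CPM, next 6.72) and Kalrn in Control replicate 4 (979 CPM, next 814).

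Tested directly against each other, the pools differed at an unadjusted p-value under 0.05 in 4 of the named genes, none of them a member and none with an adjusted p-value under 0.05 in edgeR, where 8.52% of all genes were under 0.05. Akap5, Akap12 and Herc6 were named because they passed in this comparison, so the count is no result. The log2 fold change of Pool 2 against Pool 1 was −0.40 in Akap5, 0.40 in Akap12, 0.60 in Herc6 and −0.21 in Kalrn.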

How the results depend on the processing

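Under 31 alternatives the 8 members gave 992 log2 fold changes, of which 944 kept their direction and side of the threshold, 44 changed sign and 4 passed the threshold, while 0 had an adjusted p-value under 0.05. Of these alternatives, 20 left out a single library, which for many comparisons was in neither of the groups compared. Such fits mostly left the estimate nearly unchanged, so the count of 944 overstates how stable the values are. Values that changed sign were at most 0.14 in size before and 0.10 after, so the direction of estimates of that size is not settled by these libraries. The cause of these shifts was not tested. Herc1 in Pool 2 against Control was −0.00356 in DESeq2 and with its size factors in edgeR, −0.011 with filterByExpr, −0.019 with only the groups compared, −0.00487 with the length and GC correction and −0.024 in 16 libraries. The correction also gave, in Pool 1 against Control, −0.00688 for Setd1a, 0.037 for Cul1, −0.021 for Xpo7 and −0.014 for Trio, further 0.00317 for Sp4 in Pool 2 against Control, 0.00714 for Setd1a in Pool 2 against Pool 1, and, in Control against Vehicle, 0.072 for Xpo7, 0.096 for Trio and 0.023 for Akap11. The 16 libraries gave −0.029 for Xpo7 in Pool 1 against Control, −0.011 for Herc6 in Pool 2 against Pool 1 and, in Control against Vehicle, 0.056 for Cul1, 0.012 for Rb1cc1 and 0.023 for Akap11. Without Pool 2 replicate 1 and Vehicle replicate 4, Rb1cc1 gave 0.00362 in Pool 2 against Pool 1 and Akap11 0.024 in Control against Vehicle. In the 16 libraries, 2 members, Trio and Herc1, were under an unadjusted 0.05 in edgeR's test of any difference among the groups.

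When single libraries were left out, the members past the threshold ranged from 0 to 1 in Pool 1 against Control (Herc1, without Control replicate 4 or without Pool 1 replicate 5), from 0 to 2 in Pool 2 against Pool 1 (Herc1 and Akap11, without Pool 1 replicate 5), and stayed at 0 in the other 2 comparisons. The ranges that follow are those of members whose estimate changed sign, and other members also shifted. In Pool 1 against Control, Xpo7 ranged from −0.045 to 0.050, Rb1cc1 from −0.19 to 0.057 and Akap11 from −0.035 to 0.20. In Pool 2 against Control, Sp4 ranged from −0.23 to 0.0062 and Herc1 from −0.076 to 0.088. In Pool 2 against Pool 1, Setd1a ranged from −0.062 to 0.038, Sp4 from −0.040 to 0.17 and Rb1cc1 from −0.23 to 0.013. In Control against Vehicle, Cul1 ranged from −0.051 to 0.036, Xpo7 from −0.066 to 0.036, Rb1cc1 from −0.14 to 0.020 and Akap11 from −0.098 to 0.097. Of the 113 partner genes, 0 to 6 then passed in Pool 1 against Control, 1 to 4 in Pool 2 against Control, 2 to 7 in Pool 2 against Pool 1 and 0 to 3 in Control against Vehicle, with the upper values without Control replicate 4 and, between the pools, without Pool 1 replicate 5. In the fits with these upper values, 1249, 1818, 2067 and 1603 of all 25190 genes passed in the same order. The upper counts are thus near or below the background.

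The replicate block, with the number in the labels as a term, gave 0 members past the threshold in each comparison, and Herc1 in Pool 1 against Control was 0.21. The numbers did not pair the mice: deviations of same-numbered libraries correlated at −0.50 to 0.46 (median −0.04) over 30 pairs, 10 of them over 0.1, and 4 of 20 libraries correlated best with their own number.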
